A study of Mus musculus with 24 samples.

Results

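In T6E cells, 177 of 19938 measured genes were higher with the R1984A form of intracellular Notch1 than with ICN1, both in the presence and in the absence of a gamma-secretase inhibitor (GSI). T6E is a Notch1-dependent mouse line of T-cell acute lymphoblastic leukaemia. Its 8 groups, each of 3 arrays, combine 4 constructs with 2 treatments. R1984A is a dimerization-defective ICN1, ICN1 is intracellular Notch1, DNMAML is a dominant negative Mastermind-like protein, and MigR1 is the empty vector that serves as their control. Each construct was brought in by transfection, per the labels, and was studied after 6 h with 1 uM compound E, which is the GSI, or with its solvent DMSO. The groups are R1984A-GSI, R1984A-DMSO, ICN1-GSI, ICN1-DMSO, DNMAML-GSI, DNMAML-DMSO, MigR1-GSI and MigR1-DMSO. All of them are the same cell line, and the labels do not say whether a construct was studied in 1 clone or in pooled cells.

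Notch1 is cut by gamma-secretase, and the freed intracellular part enters the nucleus, binds the DNA-binding protein Rbpj and recruits a Mastermind-like coactivator. Complexes can also bind as a pair on facing Rbpj sites, through contacts that the R1984A change disrupts, and the GSI stops the cutting of the cell's own Notch1 but does not touch ICN1 or R1984A, which are already in the cut form. DNMAML blocks the complex itself. A gene that is higher with R1984A than with ICN1 may therefore stand above the empty vector in both, near it with ICN1, or below it with ICN1, and these kinds are kept apart here.

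The members were chosen on the group means of the deposited log2 values, with 1 probe set per gene. A member had a mean at least 0.4 higher in R1984A-GSI than in ICN1-GSI, at least 0.4 higher in R1984A-DMSO than in ICN1-DMSO, and not lower in R1984A-GSI than in MigR1-GSI. It also had a mean of at least 5 in at least 1 of the 8 groups, a floor that 8135 of the 19938 genes passed. On the log2 scale a difference of 1 is a 2-fold difference. Values of the R1984A, ICN1 and MigR1-GSI arrays chose the members, so they are given as a description with no test. With the same thresholds turned round, 110 genes were higher with ICN1 than with R1984A. Just inside the threshold, the smaller of the R1984A minus ICN1 differences was 0.4070 for Plcl1, 0.4066 for Fbxl20, 0.4048 for G2e3, 0.4029 for Asah1 and 0.4006 for Ccm2. Just outside it was 0.3998 for Ttc7, 0.3970 for Gramd1a, 0.3963 for Ube2h, 0.3961 for Tmem86b and 0.3960 for Map1b, so no gap in the values sets the members off.

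Array medians over all 35556 probe sets were 3.90 to 4.18 on the log2 scale, and they were 4.05 to 4.18 on the replicate 3 arrays, against 3.91 to 3.95 on the replicate 1 arrays and 3.90 to 4.07 on the replicate 2 arrays. Arrays of the same group correlated at 0.982 to 0.994. Notch1 itself averaged 7.07 ± 0.08 in R1984A-GSI cells, 7.32 ± 0.07 in ICN1-GSI cells and 5.66 ± 0.06 in MigR1-GSI cells (SD, n = 3 each). In bulk RNA, fewer cells of a kind and less RNA per cell cannot be told apart.

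**Figure D1:**
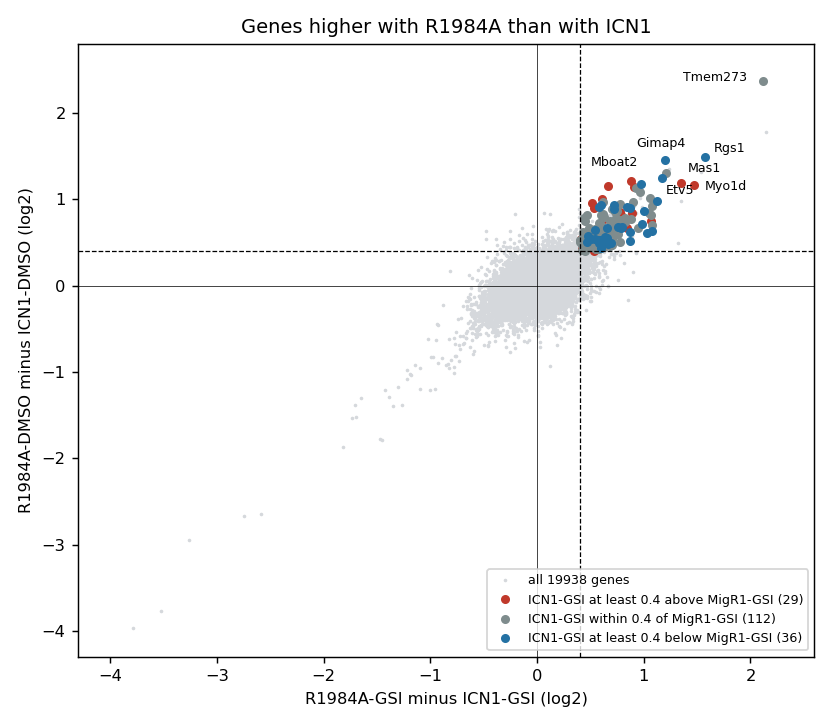
R1984A minus ICN1 differences of group means (log2) in GSI (x axis) against DMSO (y axis) for all 19938 genes, with the members coloured by where ICN1-GSI stood relative to MigR1-GSI and dashed lines at 0.4. The 177 members fill the upper right corner, with Tmem273 farthest out at 2.11 and 2.37, and grey points in that corner did not reach the floor or were below MigR1-GSI.

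The median member was 0.60 higher with R1984A than with ICN1 in GSI (range 0.401 to 2.114) and 0.606 higher in DMSO (range 0.405 to 2.373), while the medians of all genes were 0.001 and -0.001. Most differences were small, and only 8 members differed by at least 1 in both treatments, while for 110 the smaller difference was at most 0.6. All 3 R1984A arrays were above all 3 ICN1 arrays for 158 members in GSI (6.19% of all genes), for 167 in DMSO (6.86% of all genes) and for 152 in both (2.22% of all genes). The rule used these arrays, so nothing is read from the counts. Between arrays of the same number, the median member difference was 0.57, 0.52 and 0.79 in GSI and 0.56, 0.65 and 0.65 in DMSO for replicates 1, 2 and 3. Within each replicate number at least 176 of the 177 members were higher on the R1984A array. The same arrays chose the members, so this agreement follows largely from the rule and nothing is read from it. The larger GSI value in replicate 3 goes with lower members on that ICN1-GSI array, where the median member stood at 6.09, against 6.48 and 6.36 on the other ICN1-GSI arrays, and without that array the rule gives 160 genes, 149 of them members.

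With each construct, the members' median difference between GSI and DMSO was close to 0. The median GSI minus DMSO difference was -0.024 with R1984A, -0.031 with ICN1, 0.015 with DNMAML and 0.004 with MigR1. The median member level was 6.89 in R1984A-GSI, 6.25 in ICN1-GSI, 6.5 in DNMAML-GSI and 6.31 in MigR1-GSI cells, and it was 6.95 in R1984A-DMSO, 6.31 in ICN1-DMSO, 6.56 in DNMAML-DMSO and 6.32 in MigR1-DMSO cells. Across the 8 groups the highest mean belonged to an R1984A group for 137 members and to a DNMAML group for the other 40. The lowest mean belonged to an ICN1 group for 97 members, to a MigR1 group for 51 and to a DNMAML group for 29.

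By the difference between ICN1-GSI and MigR1-GSI, 29 members had ICN1 at least 0.4 above the empty vector, 112 had it within 0.4, and 36 had it at least 0.4 below. In the 29 members with both constructs above the vector, R1984A-GSI exceeded MigR1-GSI by a median of 1.387 and ICN1-GSI exceeded it by 0.775. In cells with the empty vector these 29 had a median GSI minus DMSO difference of -0.284, with 25 of 29 lower in GSI. The 36 members with ICN1 below the vector had R1984A-GSI above MigR1-GSI by a median of 0.137, and their median GSI minus DMSO difference in MigR1 cells was 0.14. These medians follow in part from the split, which used MigR1-GSI, and are a description. The kinds hold for GSI only. With DMSO, ICN1 and the vector differed by at least 0.4 in 17 of the 36, 16 of the 29 and 9 of the 112.

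**Figure D2:**
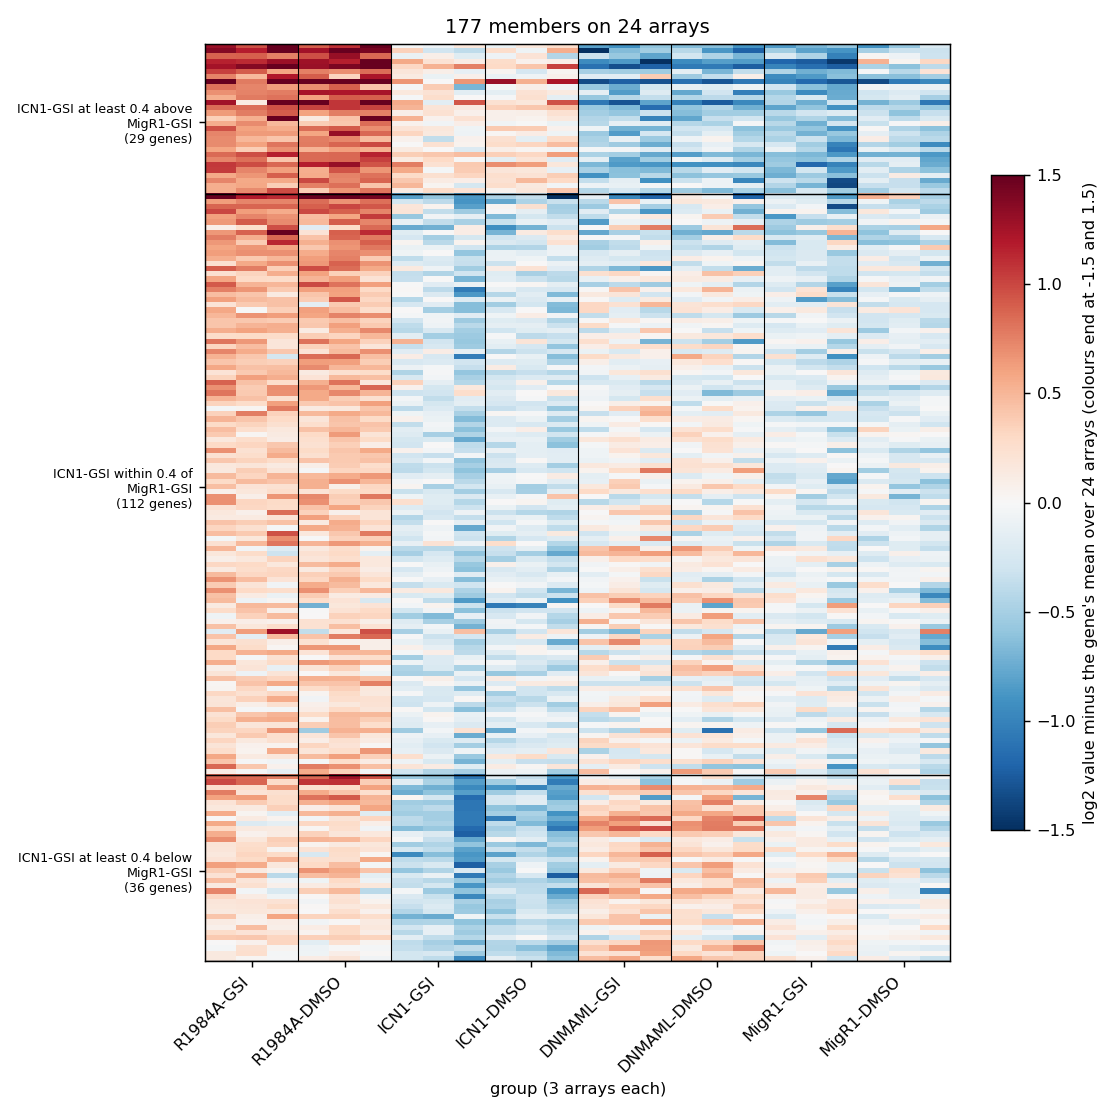
Log2 values of the 177 members (rows) on the 24 arrays (columns), each minus the gene's mean over all arrays, in 3 blocks by the position of ICN1-GSI relative to MigR1-GSI. The R1984A columns are red in all blocks, the DNMAML and MigR1 columns are blue in the top block of 29, and the ICN1 columns are blue in the bottom block of 36, most of all on the replicate 3 arrays.

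Among the 12 members with the largest smaller difference, Tmem273, a small transmembrane protein of little-known function, stood out. It had 7.93, 7.34 and 7.27 in R1984A-GSI cells, against 5.34, 5.56 and 5.29 in ICN1-GSI cells, and 7.84, 7.82 and 7.59 in R1984A-DMSO cells, against 5.69, 5.80 and 4.65 in ICN1-DMSO cells. The R1984A arrays were all above the others in the series, and the differences were 2.11 and 2.37. MigR1-DMSO cells held 6.69, 6.52 and 5.65, and ICN1 minus MigR1 was -0.91 in DMSO and -0.32 in GSI.

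Rgs1, which shortens G-protein signals from chemokine receptors in lymphocytes, came next. Its values were 5.75, 5.73 and 5.65 in R1984A-GSI cells, against 4.33, 4.28 and 3.81 in ICN1-GSI cells, a difference of 1.57. In DMSO they were 5.75, 6.15 and 5.85 with R1984A, against 4.73, 4.53 and 4.02 with ICN1, a difference of 1.49, and DNMAML and MigR1 cells lay between, with group means of 4.58 to 4.86. Mas1, the receptor of an angiotensin-derived peptide, showed another order. It had 5.64, 5.32 and 6.19 in R1984A-GSI cells and 4.32, 4.27 and 4.52 in ICN1-GSI cells, against 3.51, 3.65 and 3.76 in MigR1-GSI cells. Both Notch1 forms were above the vector for Mas1, and R1984A was above ICN1 by 1.34 in GSI and by 1.19 in DMSO.

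Etv5, an ETS-family transcription factor that responds to growth factor signals, had its highest levels in DNMAML cells. It had 9.41, 9.42 and 9.80 in R1984A-GSI cells, against 8.49, 8.43 and 8.20 in ICN1-GSI cells, while DNMAML-GSI cells had 9.67, 9.65 and 9.86 and MigR1-GSI cells had 9.19, 9.29 and 9.25. ICN1 was thus the low group and R1984A lay 0.30 above the vector. Fam20a, a pseudokinase of the secretory pathway, also had its lowest level with ICN1, with means of 6.58 ± 0.32 in R1984A-GSI, 5.45 ± 0.11 in ICN1-GSI, 6.5 ± 0.07 in DNMAML-GSI and 6.13 ± 0.26 in MigR1-GSI cells (SD, n = 3 each). Myo1d, an unconventional myosin that links membranes to actin, resembled Mas1, with 6.78, 6.59 and 6.94 in R1984A-GSI cells and 5.76, 5.12 and 5.03 in ICN1-GSI cells, against 4.89, 4.60 and 4.52 in MigR1-GSI cells. Its differences between R1984A and ICN1 were 1.47 in GSI and 1.17 in DMSO.

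Mboat2, an acyltransferase of lysophospholipids, had 6.52, 6.63 and 6.62 in R1984A-GSI cells, against 5.62, 5.51 and 5.01 in ICN1-GSI cells, with MigR1-GSI at 5.81, 5.71 and 5.48. Efcab3, an EF-hand protein, had 7.36 on each of the 3 R1984A-GSI arrays, against 6.67, 6.54 and 5.67 in ICN1-GSI cells. Cd160, an immunoglobulin-family receptor of cytotoxic lymphocytes, had 8.44, 8.07 and 8.0 in R1984A-GSI cells, against 7.63, 7.07 and 6.91 in ICN1-GSI cells, and 7.5, 7.49 and 6.80 in MigR1-GSI cells. For these 3 genes in GSI, ICN1 stood within 0.4 of the vector and R1984A stood apart from both. Mapkapk3, a kinase downstream of stress-activated MAP kinases, had 5.06, 5.18 and 5.12 in R1984A-GSI cells, against 3.88, 4.40 and 4.31 in ICN1-GSI cells, and differed by 0.93 in GSI and 1.13 in DMSO.

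The GIMAP genes encode GTPases of lymphocyte survival that lie next to each other on mouse chromosome 6, and 3 of them were members. Gimap4 had 5.88, 5.76 and 5.16 in R1984A-GSI cells, against 4.73, 4.41 and 4.06 in ICN1-GSI cells. Gimap7 had 6.35, 6.37 and 6.01 in R1984A-GSI cells, against 5.77, 5.46 and 4.58 in ICN1-GSI cells, and MigR1-GSI cells spread from 5.30 to 6.47. Gimap9 averaged 8.64 ± 0.18 in R1984A-GSI cells, against 7.94 ± 0.44 in ICN1-GSI cells (SD, n = 3 each). All 3 also stood higher with R1984A in DMSO, by 1.45, 1.18 and 0.89. The other 5 measured GIMAP genes, which did not meet the rule, were also higher with R1984A, with differences between 0.42 and 0.89 in GSI and between 0.06 and 0.91 in DMSO, and 4 of them had group means under the floor in every group.

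**Figure D3:**
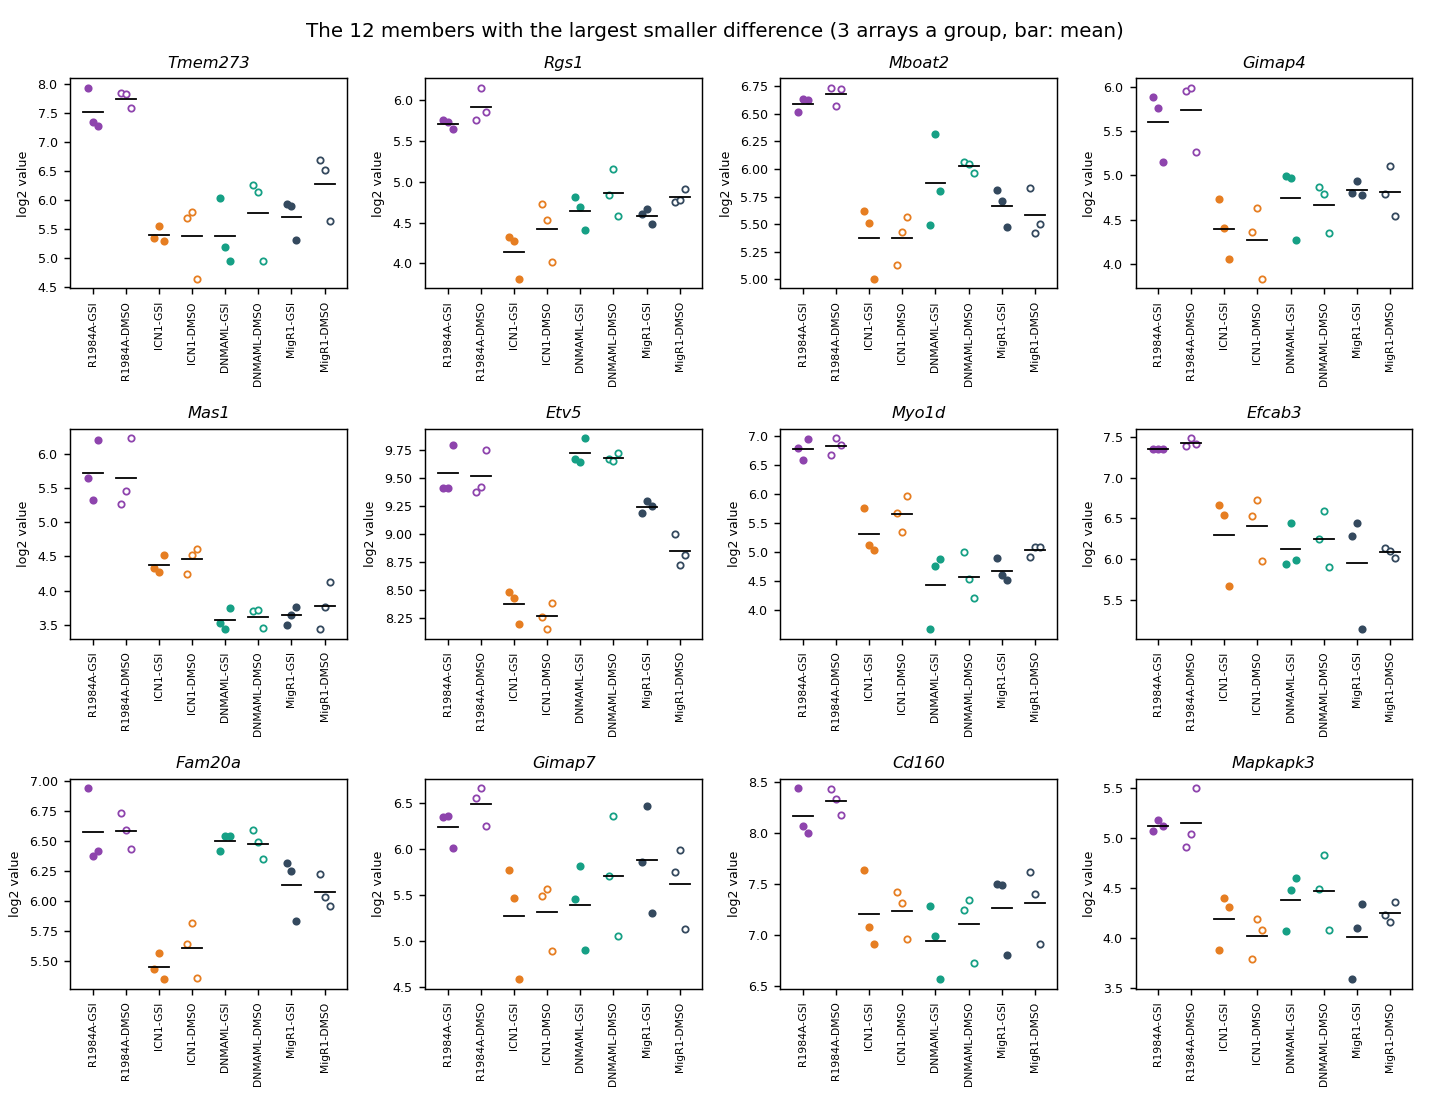
Log2 values of the 12 members with the largest smaller difference on the 3 arrays of each group (filled points GSI, open points DMSO, bars group means). R1984A arrays are the highest for Tmem273, Rgs1, Mas1, Myo1d and Cd160, whereas for Etv5 the DNMAML means of 9.73 and 9.68 lie above the R1984A means of 9.54 and 9.52, and ICN1 is lowest at 8.37 and 8.27.

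Promoters were read because the Notch1 complex binds DNA through Rbpj, whose core site reads TGGGAA, and because facing pairs of cores are where dimers form. RefSeq windows of 300 bases, from 250 before to 50 after a start site (build GRCm38.p6), matched 139 of the 177 members with 206 windows. On either strand, TGGGAA was in 27.2% of the members' windows, against 24.1% of the 19115 windows of all measured genes. By the position of ICN1, it was in 38.7% of 31 windows of members with both forms above the vector, 26.6% of 128 with ICN1 near it and 21.3% of 47 with ICN1 below it. Per gene these shares were 36.0% of 25, 37.3% of 83 and 32.3% of 31, so the order per window is not seen per gene. Over all kinds the core was in 36.0% of the 139 members, against 27.1% of all 15562 measured genes with a window. The longer form GTGGGAA, which contains the core, was in 7.77% of the members' windows, against 6.14% of all windows. A pair of cores on opposite strands with 15 to 19 bases between them was in 0 of 206 member windows, against 0.0314% of all windows. Either order, TGGGAA then TTCCCA or the reverse, was counted, so 0.0314% is not the share of 1 orientation alone. The Runx motif TGTGGT was in 11.2%, against 14.2%, and the E-box CACGTG was in 5.34%, against 8.26%. Members had 1.48 windows per gene, against 1.23 for all genes, so shares per gene are not directly comparable and the other shares are given per window. No match says only that these letters are not in the window.

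The 250 bases before the start site are shown, 5′ to 3′ on the gene's strand, for 5 named members that hold a core there, so that its place can be seen beside the values; capitals mark the core, read as TGGGAA or, on the other strand, TTCCCA.
Etv5, chr16:22438369-22438618, strand -: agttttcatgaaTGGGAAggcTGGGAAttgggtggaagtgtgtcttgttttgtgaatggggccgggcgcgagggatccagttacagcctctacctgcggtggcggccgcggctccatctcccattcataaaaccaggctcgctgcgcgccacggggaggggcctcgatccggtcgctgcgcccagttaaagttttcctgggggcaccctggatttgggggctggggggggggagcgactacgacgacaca
Efcab3, chr11:105091969-105092218, strand +: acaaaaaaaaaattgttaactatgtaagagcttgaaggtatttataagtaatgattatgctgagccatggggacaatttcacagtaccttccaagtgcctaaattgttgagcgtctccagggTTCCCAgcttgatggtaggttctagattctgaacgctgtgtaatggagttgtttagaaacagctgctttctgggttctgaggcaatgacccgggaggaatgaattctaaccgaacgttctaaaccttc
Cd160, chr3:96814522-96814771, strand -: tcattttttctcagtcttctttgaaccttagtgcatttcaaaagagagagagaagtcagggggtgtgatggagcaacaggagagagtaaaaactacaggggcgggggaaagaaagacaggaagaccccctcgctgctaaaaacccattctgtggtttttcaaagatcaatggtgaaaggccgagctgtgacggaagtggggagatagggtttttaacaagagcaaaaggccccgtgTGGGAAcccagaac
Rgs3, chr4:62619422-62619671, strand +: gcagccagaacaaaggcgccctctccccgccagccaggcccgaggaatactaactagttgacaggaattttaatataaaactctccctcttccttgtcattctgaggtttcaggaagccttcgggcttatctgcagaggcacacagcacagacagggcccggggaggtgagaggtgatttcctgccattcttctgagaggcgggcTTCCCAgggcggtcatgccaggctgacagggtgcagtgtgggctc
Lcp2, chr11:34046678-34046927, strand +: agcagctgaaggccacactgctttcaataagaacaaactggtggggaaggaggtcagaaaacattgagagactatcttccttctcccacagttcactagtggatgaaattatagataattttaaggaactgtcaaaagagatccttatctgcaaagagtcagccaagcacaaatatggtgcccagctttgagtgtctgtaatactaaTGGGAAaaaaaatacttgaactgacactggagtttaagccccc
In Etv5 the core occurs at 238 and again at 229 bases before the start, both in the same direction and so not as a facing pair. In Cd160 it lies 14 bases before the start, in Lcp2 43 and in Rgs3 45.

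Signalling proteins and their receptors fell into several groups. Of 9 G-protein coupled or purinergic receptors and RGS regulators, Gpr65, a proton-sensing receptor, was 0.90 and 0.97 higher with R1984A in GSI and DMSO, and Gpr18, a receptor of lipid ligands, 0.83 and 0.79. P2rx7, the ATP-gated channel of lymphocytes, was 0.43 and 0.58 higher. The 24 kinases, lipid phosphatases and adaptors had differences between 0.45 and 1.08 in GSI and between 0.45 and 1.13 in DMSO. They included parts of phosphoinositide signalling: Inpp5d (0.70 and 0.65), a phosphatase that removes the lipid made by PI 3-kinase, Inpp4b (0.98 and 0.72), which acts on the next lipid, and the kinase subunits Pik3cg (0.49 and 0.67) and Pik3r1 (0.58 and 0.45). Proteins of the T-cell receptor pathway were Lcp2 (0.60 and 0.51), its adaptor SLP-76, Tespa1 (1.08 and 0.63), Rasgrp2 (0.69 and 0.75), a Rap activator, and Prkch (0.62 and 0.55), a protein kinase C. Proteins that promote and proteins that limit these signals were thus both among the members.

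The 21 surface receptors, ligands and adhesion proteins differed by 0.43 to 1.08 in GSI. Pdgfrb, a platelet-derived growth factor receptor, was 0.89 and 0.84 higher with R1984A. Igf2r, which takes up lysosomal enzymes and IGF2, averaged 9.43 ± 0.03 in R1984A-GSI cells, against 8.56 ± 0.32 in ICN1-GSI cells and 8.41 ± 0.18 in MigR1-GSI cells (SD, n = 3 each). Cd7, a T-cell surface glycoprotein, averaged 6.49 ± 0.84 in R1984A-GSI cells and 5.87 ± 0.55 in ICN1-GSI cells, against 4.94 ± 0.22 in MigR1-GSI cells. In Cd7 the groups overlapped, with a range of 5.56 to 7.20 in R1984A-GSI cells, against 5.27 to 6.36 in ICN1-GSI cells. Itgal (0.48 and 0.49) and Itgb7 (0.53 and 0.55), integrin chains of lymphocytes, Icos (0.70 and 0.47), a costimulatory receptor, and Cd47 (0.59 and 0.53), which inhibits engulfment, were further members.

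Transcription factors and cofactors were 16 members. Bcl6, a repressor of germinal centre and helper T cells, averaged 6.07 ± 0.17 in R1984A-GSI cells, against 5.01 ± 0.14 in ICN1-GSI cells and 4.98 ± 0.28 in MigR1-GSI cells (SD, n = 3 each). Nr4a1, an orphan receptor that antigen receptor signals induce, averaged 6.19 ± 0.23 in R1984A-GSI cells and 5.41 ± 0.16 in ICN1-GSI cells, against 4.74 ± 0.14 in MigR1-GSI cells. The step above the vector in GSI was therefore shared by ICN1 for Nr4a1 but not for Bcl6. With DMSO, Bcl6 averaged 6.04 with R1984A and 5.22 with ICN1, against 4.95 with MigR1. Id3, an inhibitor of E proteins, was 0.60 and 0.94 higher with R1984A, and Rel, a subunit of NF-kappaB, 0.87 and 0.62. Foxp1 (0.58 and 0.51), which holds T cells in quiescence, Nfatc2 (0.58 and 0.55), Smad3 (0.51 and 0.63), the TGF-beta effector, Etv6 (0.70 and 0.54) and Patz1 (0.73 and 0.85) belonged here too.

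The 23 small GTPases, their regulators and cytoskeletal proteins differed by 0.43 to 1.47 in GSI. Rras2, a Ras-like GTPase, had 9.82, 9.94 and 10.14 in R1984A-GSI cells and 9.35, 9.37 and 9.43 in ICN1-GSI cells, against 8.34, 8.30 and 8.11 in MigR1-GSI cells. Both Notch1 forms lay above the vector with no overlap, R1984A by 1.72 and ICN1 by 1.13. Rab37 (1.00 and 0.87) and Rab19 (0.72 and 0.88), vesicle GTPases, instead had ICN1 below the vector. Among 7 genes of cell cycle, growth arrest and apoptosis, Btg1, an antiproliferative protein, was 0.72 and 0.69 higher with R1984A, Sesn3, a stress-induced inhibitor of growth signalling, 0.66 and 0.55, and Cdk6, the cyclin D partner kinase, 0.58 and 0.49. Among 19 enzymes, transporters and channels, Mfsd2a, which carries lysophospholipids into cells, was 0.88 and 1.21 higher, and Chit1, a chitinase, 1.07 and 0.74. Another 55 members have no role in this grouping, and they differed by 0.40 to 2.11 in GSI.

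One member is a microRNA gene, Mir103-2, and its values are those of the gene's probe set, which do not tell the mature forms apart. Its mature sequences from RefSeq (GRCm38.p6) are shown with the seed, bases 2 to 8, in capitals.
mmu-miR-103-2-5p, chr2:131288066-131288088, strand +: aGCUUCUUuacagugcugccuug
mmu-miR-103-3p, chr2:131288103-131288125, strand +: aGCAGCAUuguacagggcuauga
Mir103-2 had 5.06, 5.42 and 5.40 in R1984A-GSI cells, against 4.89, 4.98 and 4.60 in ICN1-GSI cells. In DMSO it had 4.20, 5.09 and 5.13 with R1984A, against 3.87, 3.93 and 4.96 with ICN1, so the groups overlapped. It is 1 of 4 members, with Tnk2, Tbc1d10c and Kcnj13, whose mean in R1984A-DMSO cells was below that in MigR1-DMSO cells.

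Members that neighbour each other on a chromosome were also listed. At most 3 places apart in the order of the measured genes, 17 pairs were found, such as Gimap9 with Gimap4, Igf2r with Mas1, Mical1 with Smpd2, Rgs22 with Fbxo43, and Etv6 with Bcl2l14. The number of such pairs in other sets of genes was not worked out, so nothing is read from this count. Mical1, which oxidises actin, and Smpd2, a sphingomyelinase, both had ICN1 above the vector, by 1.04 and 0.90 in GSI. Rgs22 and Fbxo43, an inhibitor of the anaphase-promoting complex, both had ICN1 within 0.4 of it. A further 17 probe sets belong to 14 members, and 15 of these were above 0 in both R1984A minus ICN1 differences, 7 of them by at least 0.4; 8 passed the floor. The second Etv5 probe set differed by 1.15 and 1.19, that of Myo1d by 0.26 and 0.13 at a level under the floor, and that of P2rx3 by 0.34 in GSI and by -0.35 in DMSO.

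The DNMAML arrays did not enter the rule except through the floor, so they allow tests. DNMAML-DMSO against MigR1-DMSO asks which members move when the Notch complex of the cells is blocked and no Notch1 form is added. Of the 177 members, 9 rose (1.10% of all genes and 2.48% of those past the floor rose) and 3 fell (0.833% of all genes and 1.94% of those past the floor fell), by limma with Benjamini-Hochberg adjusted p under 0.05 over 19938 genes. The median difference was 0.143, against -0.004 for all genes and 0.037 for those past the floor, and 125 of 177 differences were above 0. With the replicate number as a block, a pairing that the labels do not state, 30 members rose and 7 fell, against 2.87% and 1.81% of all genes and 6.53% and 4.0% of those past the floor. The 9 became 3 without DNMAML-DMSO replicate 2 and 4 without MigR1-DMSO replicate 3, and the 3 became 1 without any single array other than MigR1-DMSO replicate 1. Between arrays of the same number the median member difference was 0.12, 0.20 and 0.14.

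The counts are given by the position of ICN1 in GSI, and the difference between the kinds was not tested. Of the 36 members with ICN1 below the vector, 5 rose and 0 fell (13 and 0 with the block, 23 and 1 at an unadjusted p under 0.05 by limma), with a median of 0.384. Of the 112 with ICN1 near the vector, 4 rose and 1 fell (17 and 3 with the block), with a median of 0.159. Of the 29 with both forms above the vector, 0 rose and 2 fell (0 and 4 with the block, 1 and 6 at an unadjusted p under 0.05 by limma), with a median of -0.129. At that unadjusted p, 1160 of all 19938 genes were higher and 911 lower, and 943 and 606 of the 8135 past the floor. Across the members, ICN1-GSI minus MigR1-GSI and DNMAML-DMSO minus MigR1-DMSO, which share no array, had a Pearson r of -0.56 and a Spearman rho of -0.55 (n = 177 genes). Over all 8135 genes past the floor the same values were -0.63 and -0.52, so the relation is not particular to the members. The points share the cell line, the platform and the replicate numbers. For comparison, of the 110 genes higher with ICN1 than with R1984A, 0 rose and 34 fell with DNMAML, with a median of -0.416.

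**Figure D4:**
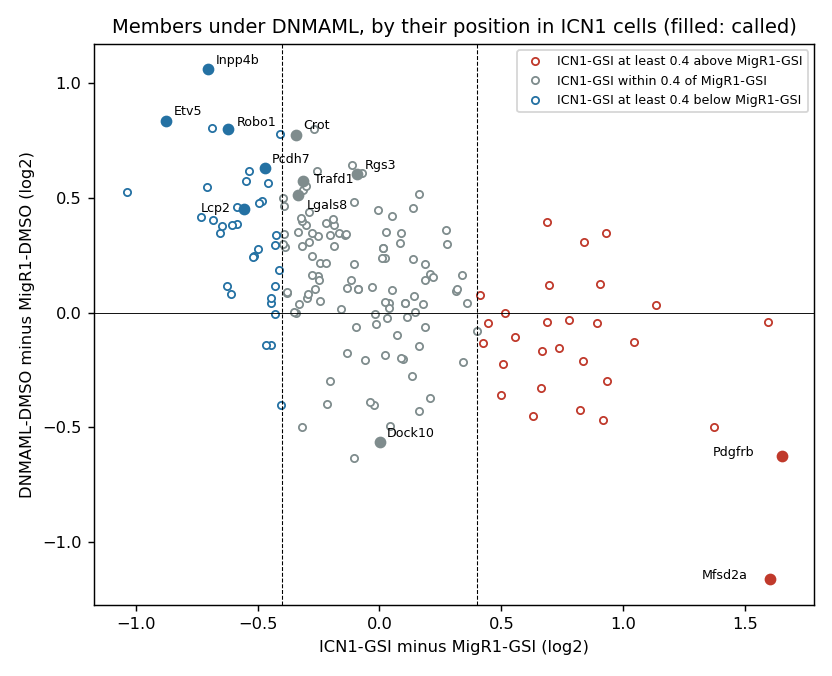
DNMAML-DMSO minus MigR1-DMSO (y axis, log2) against ICN1-GSI minus MigR1-GSI (x axis, log2) for the 177 members, with dashed lines at -0.4 and 0.4 and filled points for members past an adjusted p of 0.05. Inpp4b, Etv5, Robo1, Pcdh7 and Lcp2 lie at the upper left, Mfsd2a and Pdgfrb at the lower right.

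Inpp4b, a phosphoinositide phosphatase that limits PI 3-kinase signalling, had 7.09, 7.21 and 7.23 in DNMAML-DMSO cells, against 6.08, 6.27 and 6.00 in MigR1-DMSO cells. It rose by 1.06 (SE 0.16, limma adjusted p = 6.18e-04), and its R1984A-DMSO mean of 6.51 lay between the 2 groups. Etv5 had 9.67, 9.66 and 9.72 in DNMAML-DMSO cells, against 9.0, 8.73 and 8.82 in MigR1-DMSO cells, a rise of 0.84 (SE 0.12, limma adjusted p = 3.91e-04). Robo1, a receptor of Slit guidance proteins, had 7.14, 7.57 and 7.73 in DNMAML-DMSO cells, against 6.75, 6.63 and 6.65 in MigR1-DMSO cells, a rise of 0.80 (SE 0.18, limma adjusted p = 0.0167). In these 3 genes the DNMAML arrays were all above the MigR1 arrays and above the R1984A-DMSO mean. Pcdh7, a protocadherin of cell adhesion, had 6.79, 7.16 and 7.42 in DNMAML-DMSO cells, against 6.55, 6.49 and 6.44 in MigR1-DMSO cells, a rise of 0.63 (SE 0.13, limma adjusted p = 0.0080). Lcp2 had 9.17, 9.29 and 9.41 in DNMAML-DMSO cells, against 8.83, 8.76 and 8.93 in MigR1-DMSO cells, a rise of 0.45 (SE 0.10, limma adjusted p = 0.0111). All 5 had ICN1 at least 0.4 below the vector in GSI, and in all 5 the R1984A-GSI mean was 0.01 to 0.30 above it.

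Of the members with ICN1 near the vector, Crot, which passes fatty acids to carnitine in peroxisomes, had 7.73, 7.59 and 7.5 in DNMAML-DMSO cells, against 7.08, 7.08 and 6.32 in MigR1-DMSO cells. The rise was 0.78 (SE 0.17, limma adjusted p = 0.0145), and without the low replicate 3 array of MigR1-DMSO it was 0.52 and lost its call (adjusted p = 0.1353). Rgs3, which like Rgs1 shortens G-protein signals, had 6.43, 6.76 and 6.69 in DNMAML-DMSO cells, against 6.04, 6.06 and 5.97 in MigR1-DMSO cells, a rise of 0.60 (SE 0.12, limma adjusted p = 0.0057). Trafd1, which restrains innate immune signals, had 6.54, 6.69 and 6.32 in DNMAML-DMSO cells, against 5.99, 6.13 and 5.70 in MigR1-DMSO cells, a rise of 0.58 (SE 0.13, limma adjusted p = 0.0215). The DNMAML-DMSO and MigR1-DMSO arrays did not overlap in any of these 3 genes. Lgals8, a galectin that binds glycans of damaged vesicles, averaged 7.78 ± 0.05 in DNMAML-DMSO cells, against 7.26 ± 0.28 in MigR1-DMSO cells (SD, n = 3 each; limma adjusted p = 0.0352). Dock10 fell, with 8.02, 7.96 and 8.09 in DNMAML-DMSO cells, against 8.42, 8.62 and 8.73 in MigR1-DMSO cells, a difference of -0.56 (SE 0.13, limma adjusted p = 0.0236).

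Both members with ICN1 above the vector that passed the test fell. Mfsd2a had 5.21, 5.33 and 5.32 in DNMAML-DMSO cells, against 6.68, 6.20 and 6.47 in MigR1-DMSO cells, a difference of -1.16 (SE 0.17, limma adjusted p = 2.75e-04). MigR1-GSI cells had 4.97, 4.91 and 4.72, so in cells with the empty vector Mfsd2a also had a GSI minus DMSO difference of -1.59, while R1984A-GSI cells had 7.32, 7.28 and 7.44 and ICN1-GSI cells 6.73, 6.38 and 6.29. Pdgfrb had 6.53, 6.53 and 6.35 in DNMAML-DMSO cells, against 7.11, 6.97 and 7.20 in MigR1-DMSO cells, a difference of -0.63 (SE 0.16, limma adjusted p = 0.0338). In GSI it averaged 9.02 ± 0.20 with R1984A and 8.12 ± 0.22 with ICN1, against 6.48 ± 0.13 with MigR1 (SD, n = 3 each). In GSI, both genes were highest with R1984A, then with ICN1, and lower with DNMAML and MigR1. Etv5, Inpp4b and Mfsd2a kept their calls in all 14 alternative fits, whereas the other 9 lost theirs in 2 to 7 of the 7 fits that left arrays out, with adjusted p up to 0.2958.

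Several other large differences did not pass. Rab19, Sp100, a component of nuclear bodies, and Cmc2, a mitochondrial protein, chosen after their values were seen, differed by 0.81, 0.80 and 0.78 between DNMAML-DMSO and MigR1-DMSO, with limma adjusted p of 0.0832, 0.0959 and 0.3289. With the replicate block these were 3.04e-04, 0.0039 and 0.0017. Of the 12 members with the largest R1984A minus ICN1 differences, Etv5 was the 1 that passed: Tmem273 differed by -0.50 (SE 0.34, limma adjusted p = 0.7205), Mboat2 by 0.44 (SE 0.18, limma adjusted p = 0.3067) and Rgs1 by 0.04 (SE 0.17, limma adjusted p = 0.9794).

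**Figure D5:**
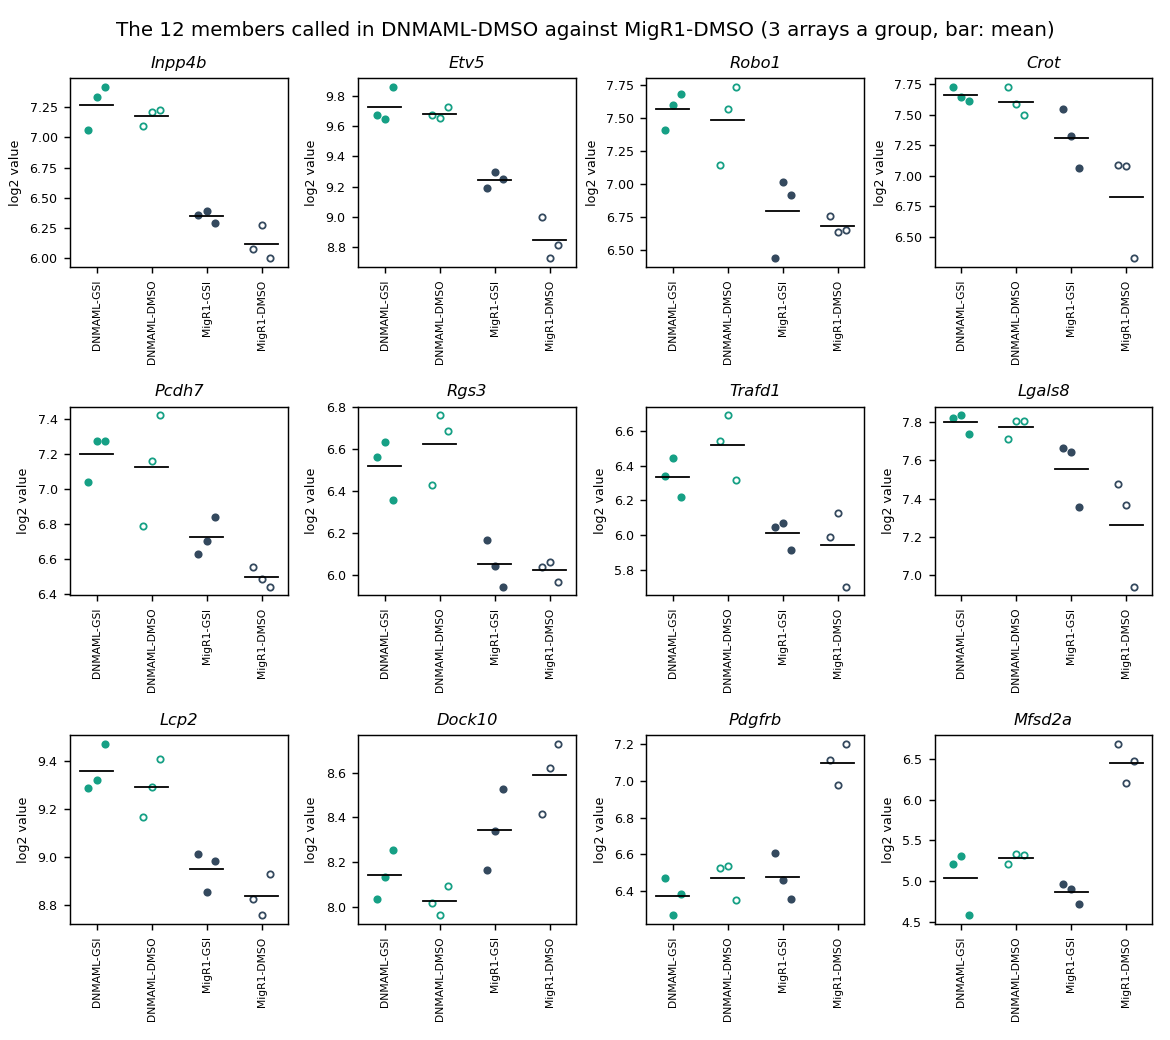
Log2 values of the 12 members past an adjusted p of 0.05 in DNMAML-DMSO against MigR1-DMSO on the 3 arrays of each group (filled points GSI, open points DMSO, bars group means). For 9 genes both DNMAML groups lie above MigR1-DMSO, and for Dock10, Pdgfrb and Mfsd2a below. For Mfsd2a the DNMAML-GSI points spread, with a difference from MigR1-DMSO of -1.41, or -1.18 without DNMAML-GSI replicate 3.

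Between DNMAML-GSI and DNMAML-DMSO, 0 members passed as higher and 0 as lower by limma (0 and 0.00502% of all genes, 0 and 0.0123% of those past the floor), with 1 higher and 4 lower at an unadjusted p under 0.05, where 247 and 260 of all genes and 54 and 93 of those past the floor were. With 1 gene called in all, 0 of 177 says nothing particular about the members, whose median difference was 0.015. With the replicate block the counts were also 0 and 0. DNMAML-GSI against MigR1-DMSO, which shares the MigR1-DMSO arrays with the first comparison, had 16 members higher and 3 lower, against 1.40% and 1.25% of all genes and 3.21% and 2.96% of those past the floor (40 and 8 with the block, against 3.32% and 2.55% of all genes and 7.49% and 5.78% of those past the floor). The 16 became 8 without MigR1-DMSO replicate 3 and 9 without DNMAML-GSI replicate 2 or replicate 3, and the 3 became 1 without DNMAML-GSI replicate 2. By position, 9 of 36 with ICN1 below the vector, 7 of 112 near it and 0 of 29 above it rose. The largest rises were 1.15 for Inpp4b (SE 0.16, limma adjusted p = 1.37e-04), 0.88 for Robo1 (SE 0.18, adjusted p = 0.0057), 0.88 for Etv5 (SE 0.12, adjusted p = 1.29e-04), 0.83 for Crot (SE 0.17, adjusted p = 0.0062) and 0.82 for Tec (SE 0.17, adjusted p = 0.0056), a kinase of antigen receptor signalling. Tec had 5.64, 5.94 and 5.51 in DNMAML-GSI cells, against 5.08, 4.97 and 4.59 in MigR1-DMSO cells. The falls were -1.41 for Mfsd2a (SE 0.17, limma adjusted p = 1.45e-05), -0.72 for Pdgfrb (SE 0.16, adjusted p = 0.0092) and -0.53 for Tacc2 (SE 0.13, adjusted p = 0.0197), a centrosomal protein with 5.32, 5.61 and 5.80 in DNMAML-GSI cells, against 5.90, 6.34 and 6.08 in MigR1-DMSO cells. Tacc2 lost its call in 6 of 14 alternatives, with adjusted p up to 0.1583 by limma, and Tec, Crot and Pdgfrb in 2 each and Robo1 in 1.

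Lists of Notch targets and of cell types place the members. Of 26 measured Notch targets, Cdk6 alone was a member, and the list's median R1984A minus ICN1 difference was -0.01 in GSI. With DNMAML 8 of the 26 fell and 3 rose, among them Nrarp, a feedback inhibitor of the Notch complex (-1.24, limma adjusted p = 5.02e-07), Myc (-1.40, limma adjusted p = 4.31e-04) and Dtx1 (-1.39, limma adjusted p = 3.72e-04). Of 41 genes of the Notch pathway 0 were members, and 0 rose and 4 fell. Of 22 genes linked to quiescence, 4 were members (Btg1, Foxp1, Bcl6 and Sesn3), chosen for the R1984A minus ICN1 difference as all members were. The list's median of that difference was 0.17 in GSI and 0.21 in DMSO, a description from which nothing is read. None of these 4 passed with DNMAML, where 3 others of the list rose: Ccng2 (1.17, limma adjusted p = 2.20e-04), Txnip (1.10, limma adjusted p = 1.03e-04) and Cdkn1b (0.62, limma adjusted p = 0.0079).

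Among T-lineage genes 22 of 27 passed the floor and 0 were members, and their mean level was 6.61 and 6.68 in R1984A-GSI and R1984A-DMSO cells, against 6.77 and 6.79 in ICN1-GSI and ICN1-DMSO cells. The lower mean does not describe the list as a whole, whose median R1984A minus ICN1 difference was 0.07 in GSI and 0.15 in DMSO. Rag1 (-3.27 and -2.94) and Rag2 (-2.59 and -2.64) were far lower with R1984A. The myeloid list had 0 of 12 genes past the floor and a mean of 3.28 and 3.23 with R1984A, against 3.25 and 3.26 with ICN1. The B-cell list had 1 of 9 past the floor, with 3.57 and 3.55, against 3.59 and 3.53. Erythroid, megakaryocyte and mast-cell genes had 2 of 10 past the floor, with 4.44 and 4.44, against 4.36 and 4.34, and NK genes 2 of 10, with 3.92 and 3.95, against 3.97 and 3.94. The stroma and epithelium list had 5 of 12 past the floor, with 5.12 and 5.03 with R1984A, against 5.0 and 4.96 with ICN1, and Pdgfrb was its 1 member of the set. Mean levels of the lists for other cell types differed by at most 0.12 between the Notch1 forms, but these means include many genes under the floor, and single markers past it differed more, in both directions. Cpa3, a mast-cell protease, averaged 6.09 and 6.17 in R1984A-GSI and R1984A-DMSO cells, against 5.23 and 5.34 in ICN1-GSI and ICN1-DMSO cells. Pecam1, an adhesion molecule of endothelium and some blood cells, averaged 5.89 and 5.95 with R1984A, against 5.22 and 5.13 with ICN1. Neither is a member, since both were lower in R1984A-GSI than in MigR1-GSI cells, and both rose with DNMAML in DMSO, Cpa3 by 2.28 (limma adjusted p = 1.98e-05) and Pecam1 by 1.04 (limma adjusted p = 0.0019). Prf1 of the NK list and Cdh1 of the stroma and epithelium list went the other way. With R1984A they were lower than with ICN1, Prf1 by -0.52 in GSI and -0.28 in DMSO, Cdh1 by -0.41 and -0.30. Both fell with DNMAML in DMSO, Prf1 by -0.73 (limma adjusted p = 0.0152) and Cdh1 by -0.68 (limma adjusted p = 0.0079). The part of these markers in the members' differences was not tested.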

How the data were processed

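Total RNA of 24 T6E samples was measured on Affymetrix Mouse Gene 1.0 ST arrays. The authors deposited log2 expression values, made with oligo and limma per the submitters' processing notes; the background correction and normalization behind them were not given in the sources used here. Their log scale was read from the range of the values, 1.28 to 13.47. No further scaling was applied.

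Gene names come from the array platform's annotation: of 35556 probe sets, 21789 had 1 symbol, 1621 several and 12146 none here, and 21698 matched a RefSeq gene. The probe set with the highest mean was kept for 999 genes with several, leaving 19938 genes. Another 4 probe sets of several symbols and 147 unnamed ones met the thresholds and are not members. Members, lists, role groups and tests were chosen with earlier results of these data known; role groups were set by hand after the members were seen.

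limma 3.58.1 in R 4.3.3 fitted 1 mean per group over all 24 arrays (16 residual and 6.56 prior degrees of freedom), with a two-sided moderated test and Benjamini-Hochberg adjustment over 19938 genes; a call is an adjusted p under 0.05. The fit was tested on simulated data. Tests were made only for DNMAML-DMSO against MigR1-DMSO, DNMAML-GSI against DNMAML-DMSO and DNMAML-GSI against MigR1-DMSO.

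Same-numbered arrays deviated together from their group means, most of all in replicate 3. Correlations were 0.199, 0.114 and 0.478, then 0.168, 0.176 and 0.413, then 0.311, 0.106 and 0.453 for replicates 1, 2 and 3 in these comparisons. The labels do not say that the numbers pair the samples, and the source of the shared deviation was not tested. The fit with the replicate block is given beside the counts, not in their place. The labels do not say whether replicates are separate cultures, so the p-values describe only the scatter among these arrays, possibly technical. With 3 arrays a group, precision is limited by their number.

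Genes named are the 12 members with the largest smaller difference, members called in the first comparison (up to 10 each way), up to 5 each way in the others, the 5 nearest each side of the threshold, and others by role with their values. Alternatives were the replicate block, a second quantile normalization, the 2 groups alone, array weights, a trended robust prior, a filter on dim genes, every probe set, and leaving arrays out; leaving out all replicate 3 arrays was added after seeing the data.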

Additional observations from a re-analysis of the deposited data

How the results depend on the processing

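The number of members, 177, was 282 with a threshold of 0.3, 119 with 0.5, 193 and 151 with a floor of 4 and 6, 167 after a second quantile normalization (164 shared) and 246 without the criterion on MigR1-GSI. Leaving out 1 of the 15 arrays that the rule uses gave 159 to 200 members, of which 149 to 174 were shared, and 101 of the 177 were kept in all 15. In DNMAML-DMSO against MigR1-DMSO the 9 members higher became 30 with the replicate block, 31 with array weights and 16 with the filter on dim genes, the 3 lower became 7 with the block and 5 with array weights, and the 386 genes called became 934 with the block, 591 after quantile normalization and 834 with array weights. In DNMAML-GSI against MigR1-DMSO the 16 higher became 40 with the block, 36 with array weights and 10 in the 2 groups alone, the 3 lower became 8 with the block, 8 with array weights and 5 with the filter, and the 529 genes called became 1170 with the block and 1091 with array weights. In DNMAML-GSI against DNMAML-DMSO the 1 gene called became 0 in the 2 groups alone, and members called were 0 in all alternatives. The replicate block changed the call of none of the 12 members named from the first comparison.

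Leaving arrays out (1 at a time, or all of replicate 3) gave 3 to 11 members higher, 1 to 3 lower and 186 to 318 genes called in the first comparison, 0 to 0, 0 to 0 and 0 to 2 in the comparison within DNMAML cells, and 8 to 13, 1 to 5 and 328 to 416 in the other. The 9 members higher became 3 without DNMAML-DMSO replicate 2 and 4 without MigR1-DMSO replicate 3, and the 3 lower became 1 without any single array except MigR1-DMSO replicate 1. The 16 higher became 9 without DNMAML-GSI replicate 2 or replicate 3 and 8 without MigR1-DMSO replicate 3; the 3 lower became 1 without DNMAML-GSI replicate 2. Without all replicate 3 arrays the counts were 7, 1 and 318, and 11, 5 and 416. Of 448 alternatives of 44 named results, 388 kept the direction and, where there was a test, the call. Another 60 kept the direction and lost the call, and 0 reversed. The 388 include all alternatives of the R1984A minus ICN1 differences, which were not tested and so had no call to lose. All 60 losses were in DNMAML comparisons with MigR1-DMSO, so they are a larger share of the tested alternatives than of the 448. Pdgfrb in the first comparison lost its call in each of the 7 fits that left arrays out (adjusted p 0.0542 to 0.1692 by limma). The cause of these changes was not tested, except that fewer arrays or fewer genes enter some fits. Dim members are limited by the floor of the signal: 4 members had a mean in MigR1-GSI cells below the highest array median.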
